A study of Mus musculus with 20 samples.

Results

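Blood stem and progenitor cells of mouse bone marrow lie among the lineage-negative, cKit-positive cells, and red cell precursors that still carry cKit lie there too. In this series single cells of that compartment from C57BL/6J mice were profiled with Quartz-Seq, a method in which PCR amplifies cDNA made from the polyadenylated RNA of 1 cell. The 11 cells described here were sorted as Lin-cKit+CD150-, a gate with no CD48 term in its label, and the other 9 of the 20 samples as Lin-cKit+CD150+CD48-. Every sample was 1 cell, no animal or treatment is named, and each cell was lysed with ERCC spike-in RNA, an added standard of known sequences.

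The 11 CD150- cells were split by the share of gene reads that erythroid genes took in each cell. Cells above 0.5% are called erythroid-type (C6, C9, C10, C12, D4, D5 and D8, 7 cells), and the others stem-like (D3, D9, D11 and D12, 4 cells). The codes are those of the sample titles. The erythroid list of 20 genes took 1.06% to 2.34% of all gene reads in the former and 0.0173% to 0.249% in the latter. The cell just inside the threshold was D4 with 1.06%, and the cell just outside was D3 with 0.249%. Because measured values made this split, and because cells of unnamed animals are not replicates, no test was made between the classes and every difference below is a description of these 11 cells. That holds for genes outside the erythroid list as well, since they were measured in the same cells.

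Red cell development runs from progenitors that switch from the transcription factor GATA2 to GATA1, through rapid divisions in which KLF1 turns on genes of the membrane, of carbonic anhydrase and of heme synthesis. Stem cells divide rarely and are known for factors such as HLF, MEIS1, MECOM and the HOXA proteins, and for receptors such as TEK. Surface CD150 is the product of Slamf1. Cells that lack it are a mixed population, in which both committed progenitors and multipotent cells are found.

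Upstream sequences of 4 genes are shown. Klf1 and Ermap are marker genes of the erythroid-type cells and were among the genes of the rule. Ces2g had the widest gap between the classes among genes outside the erythroid list, and Hlf had the widest gap in the other direction. Ces2g and Hlf took no part in the split and were picked after it. Each is the 250 bases before the gene's start in RefSeq on GRCm38.p6, read 5′ to 3′ on the gene's strand. Capitals mark every match, on either strand, to AGATAA or TGATAA, the letters that GATA factors are known to bind, and to CCNCNCCC, the letters of KLF factors. Matches to CCNCNCCC may overlap each other. The windows are chr8:84901732-84901981 on the plus strand, chr4:119189996-119190245 on the minus strand, chr8:104961468-104961717 on the plus strand and chr11:90390918-90391167 on the minus strand.
Klf1: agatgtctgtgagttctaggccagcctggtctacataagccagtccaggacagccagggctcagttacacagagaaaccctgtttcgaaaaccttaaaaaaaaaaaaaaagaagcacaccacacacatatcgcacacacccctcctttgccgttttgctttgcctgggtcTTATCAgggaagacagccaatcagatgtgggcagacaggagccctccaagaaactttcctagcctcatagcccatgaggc
Ermap: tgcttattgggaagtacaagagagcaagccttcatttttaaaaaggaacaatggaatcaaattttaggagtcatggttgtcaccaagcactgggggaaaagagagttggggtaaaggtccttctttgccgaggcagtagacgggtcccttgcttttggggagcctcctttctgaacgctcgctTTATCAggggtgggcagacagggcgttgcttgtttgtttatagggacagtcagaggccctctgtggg
Ces2g: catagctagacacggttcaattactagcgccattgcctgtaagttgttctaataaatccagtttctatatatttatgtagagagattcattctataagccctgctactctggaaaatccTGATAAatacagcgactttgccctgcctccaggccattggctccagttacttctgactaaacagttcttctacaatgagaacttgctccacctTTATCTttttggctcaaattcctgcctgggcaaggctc
Hlf: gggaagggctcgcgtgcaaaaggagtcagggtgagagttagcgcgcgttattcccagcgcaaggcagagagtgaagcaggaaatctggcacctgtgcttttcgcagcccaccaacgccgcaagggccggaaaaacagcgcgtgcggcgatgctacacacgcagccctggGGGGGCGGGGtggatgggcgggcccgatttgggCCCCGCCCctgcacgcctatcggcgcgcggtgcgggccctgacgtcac
Klf1 and Ermap each held 1 match to TGATAA, Ces2g held 1 match to each GATA form, and Hlf held 3 matches to CCNCNCCC and none to a GATA form. Of 27025 windows of this length, 17.0% held a GATA form and 45.6% held CCNCNCCC, with 1 start taken for each gene. Of the erythroid list 15 of 20 genes had a window in the table, and 9 of them held a GATA form, 11 CCNCNCCC and 5 both. Of the 12 genes with the widest gaps towards erythroid-type cells 8 had a window, and 1 held a GATA form and 3 CCNCNCCC. Among the 12 genes towards stem-like cells 11 had a window, none with a GATA form and 8 with CCNCNCCC. A match says only that the letters are there.

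Depth, alignment and the spike-ins differed along with the split, and bear on every comparison below. Gene reads were 996440 to 5776125 in erythroid-type cells and 2510594 to 3355469 in stem-like cells. Unaligned reads made up 2.49% to 16.8% in the former, with D8 highest, and 14.5% to 23.6% in the latter. Gene reads per ERCC read were 109 to 302 (median 227) against 12.7 to 43.8 (median 30.2), so the classes did not overlap and the medians were 7.52-fold apart. CD150+CD48- cells had 22.3 to 109. At an equal depth of 660007 gene reads, 5474 to 8894 genes had a read in erythroid-type cells and 5435 to 8783 in stem-like cells, which overlapped widely. All 4 stem-like cells carry the letter D in their codes, while the erythroid-type cells carry C (4 cells) or D (3 cells), and no source used here says what the letters mark. The part of depth, RNA amount and letter in the differences was not tested. D8 stood apart among the erythroid-type cells, and so did D12 among the stem-like cells and C9 among the erythroid-type cells for some lists. Values without them are given where they change a result.

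**Figure D1:**
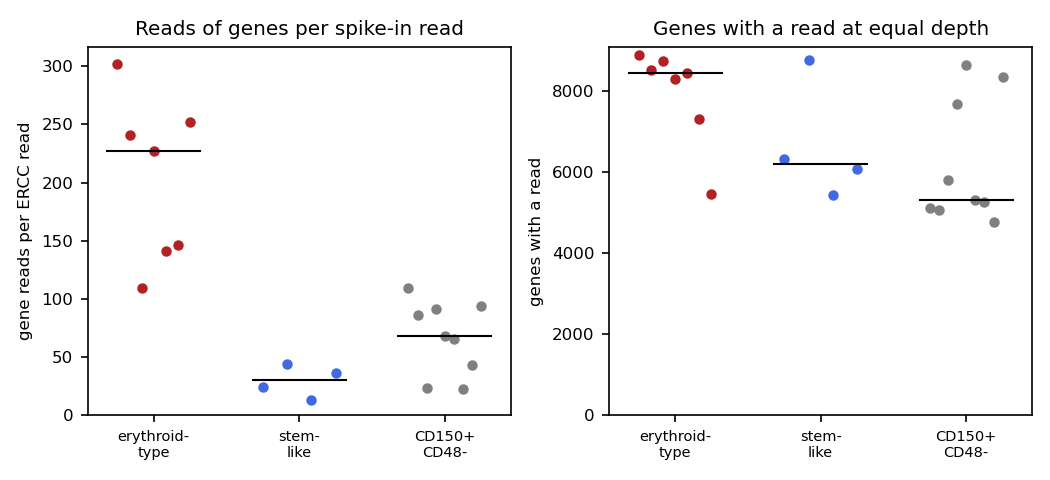
Gene reads per ERCC spike-in read (left) and number of genes with a read at 660007 gene reads (right), by class. Each point is 1 cell and the line is the median: the erythroid-type cells lie at 109 to 302 gene reads per ERCC read and the stem-like cells at 12.7 to 43.8, while the numbers of genes overlap.

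Levels below are CPM, a gene's reads scaled by the total of gene reads of the cell, after each cell was thinned to the same depth, where 1 read is 1.52 CPM. They compare a gene between cells and not 1 gene with another. A log2 fold is that of mean CPM plus 1 in erythroid-type over stem-like cells, so positive values mean higher in erythroid-type cells. Where a class had no read, the fold is a lower bound on the ratio of reads in these 11 cells. The floor was 3 reads over the class, 0.649 CPM in erythroid-type and 1.14 CPM in stem-like cells. Since reads are PCR copies, the bound sets no limit on a ratio of RNA molecules or in other cells. Of 9763 genes past a filter of 10 thinned reads in all and a read in 3 of the 11 cells, 2504 (25.6%) were at least 4-fold higher in erythroid-type cells and 1585 (16.2%) in stem-like cells. For 641 genes (6.57%) all 7 erythroid-type cells lay above all 4 stem-like cells, and for 232 (2.38%) all 4 lay above all 7. The median log2 fold of the 9763 genes was 0.28. A gene with no read in 1 class passed the filter through the other class alone, so its direction was fixed in advance.

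These counts describe mRNA relative to the other mRNA of the cell. Scaled to ERCC reads instead, the median log2 fold of all genes was 2.83, a shift of 2.55 towards erythroid-type cells. Per ERCC read all 7 cells lay above all 4 for 1965 genes (20.1%), and all 4 above all 7 for 104 (1.07%). Of the 1585 genes at least 4-fold higher in stem-like cells, 523 were still so per ERCC read and 425 were higher in erythroid-type cells. Among cells of letter D alone, 3 erythroid-type against 4 stem-like, all 3 lay above all 4 for 929 genes (9.52%) and all 4 above all 3 for 369 (3.78%).

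**Figure D2:**
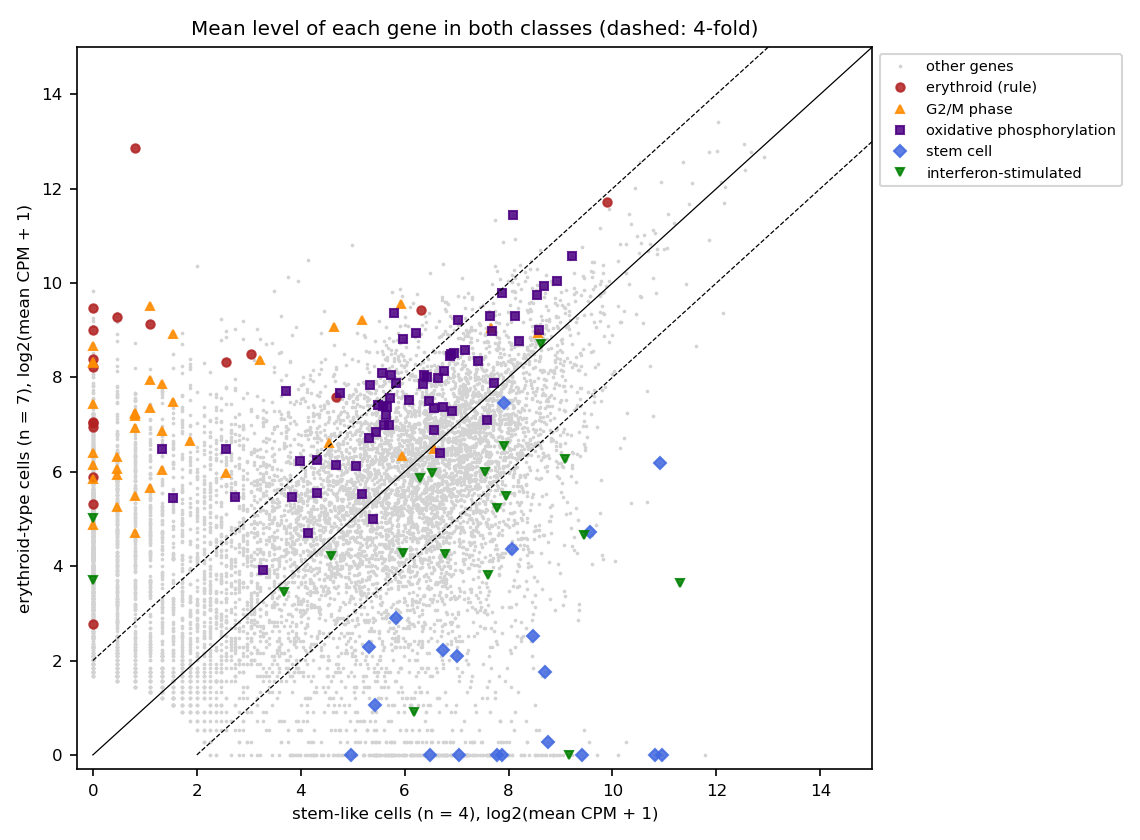
Mean level of each gene past the filter, as log2 of mean CPM plus 1, in the 4 stem-like cells (x axis) and the 7 erythroid-type cells (y axis), with the line of equality and dashed lines at 4-fold. Stem cell genes lie below the lower dashed line except Mllt3, and genes of the erythroid list lie above the upper one except Car2.

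The gate genes and the 6 marker genes come first. Car1, Klf1 and Ermap were among the genes of the rule, so their values restate the split and do not check it. Slamf1, which encodes CD150, had no read in any of the 11 cells, and Cd48 had none either. A count of 0 in 7 cells allows a share of up to 41.0% of cells with a read, and 0 in 4 cells up to 60.2% (exact Clopper-Pearson upper limits at 95%), limits that take each cell as a separate draw and cover the counting of cells only, so little can be said of these 2 genes at this number of cells. Kit, the receptor of stem cell factor and the sorted marker cKit, had 63.6 to 203 CPM (median 162) in erythroid-type cells. In stem-like cells it had 662 in D3, 908 in D9, 1156 in D11 and 356 in D12. The classes did not overlap, with a log2 fold of -2.36, but per ERCC read the direction turned, to 0.57.

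Of the marker genes, Car1 (ENSMUSG00000027556, chromosome 3, 14766216 to 14808368), carbonic anhydrase 1, had 1871 to 16888 CPM (median 7045) in erythroid-type cells. In stem-like cells 2 reads were found, both in D9. Klf1 (ENSMUSG00000054191, chromosome 8, 84901928 to 84905291), the transcription factor of the erythroid program, had 477 to 652 CPM (median 542), and 3 reads in D9 alone among stem-like cells. Ermap, a membrane protein of red cells, had 388 to 991 CPM (median 652) and no read in the 4 stem-like cells, at least 619.6-fold higher. Il1rl1, the receptor of interleukin 33 and a member of no list the split used, had 6.06 to 115 CPM (median 63.6), lowest in C12, and no read in the 4 stem-like cells. None of the 4 overlapped between the classes. Car1, Klf1 and Ermap counted in the sum that made the split, which favours this without fixing it for a single gene. Il1rl1 was not in that sum, but it was given as a marker of these same cells and is no separate support. D9 held the few reads of these genes that the stem-like cells had.

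Angpt1 (ENSMUSG00000022309, chromosome 15, 42424723 to 42676977), angiopoietin 1, the ligand of the TEK receptor, had no read in any erythroid-type cell. Its levels in stem-like cells were 368 in D3, 4127 in D9, 815 in D11 and 2603 in D12, at least 3047-fold higher. Meis1 (ENSMUSG00000020160, chromosome 11, 18879817 to 19018985), a homeobox factor of stem cells, had 0 to 13.6 CPM (median 0) in erythroid-type cells, with reads in C6, C9 and D4. In stem-like cells Meis1 had 630.3 in D3, 412 in D9, 202 in D11 and 426 in D12, and the lowest of these was above the highest of the other class. Both genes had reads in all 9 CD150+CD48- cells. Angpt1 and Meis1 were not in the sum that made the split, but they were given as markers of these same cells and are no separate support.

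Of the 20 genes of the erythroid list, which chose the cells, 18 passed the gene filter. Icam4 had no read in the 11 cells, and Slc4a1, the anion exchanger of mature red cells, had 1 read, in D12. Among the others 17 were at least 4-fold higher in erythroid-type cells (25.6% of all genes tested) and 13 had all 7 above all 4 (6.57%), with a median log2 fold of 6.99 (6.80 with genes at 0 in a class at their bound). These values restate the choice and support nothing. Within the class the members varied. Gata1, the master factor of the lineage, had 30.3 to 614 CPM (median 326) and no read in the 4 stem-like cells, and its lowest level was in D8. Epor, the erythropoietin receptor, had 3.03 to 84.8 CPM (median 40.9). Tfrc, the transferrin receptor that brings iron into the cell, had 330.3 to 1142 CPM (median 571) in erythroid-type cells, and in stem-like cells 294 in D3, 0 in D9, 0 in D11 and 19.7 in D12. Of genes known from later maturation, Alas2, the heme synthesis enzyme of maturing red cells, had reads in 3 of 7 cells, up to 27.3 CPM in C9, and Epb42, a membrane skeleton protein, had 0 to 445 CPM (median 111) with none in C9. Car2, carbonic anhydrase 2, was the member that differed least, with 2023 to 5158 CPM (median 2921) against 2250.0 in D3, 485 in D9, 961 in D11 and 130.3 in D12, where D3 lay within the range of the erythroid-type cells.

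Heme synthesis genes other than Alas2 were not in the rule. Of 21 genes of heme synthesis and iron, all of which passed the filter, 14 were at least 4-fold higher in erythroid-type cells (25.6% of all genes tested), none in stem-like cells, and 11 did not overlap (6.57% of all genes), all with erythroid-type cells above. The median log2 fold was 3.24, against 0.28 over all genes. Fech, ferrochelatase, the last enzyme of the pathway, had 352 to 1377 CPM (median 418) and no read in the 4 stem-like cells, at least 513-fold higher. It was read in 6 of 9 CD150+CD48- cells, up to 1017 CPM, so a read of Fech was not limited to erythroid-type cells. Uros, an enzyme of the middle of the pathway, had 18.2 to 569.7 CPM (median 323) and 2 reads in stem-like cells, 1 in D9 and 1 in D12. Cpox, a late step in the mitochondrion, had 197 to 698 CPM (median 403) against 0 in D3, 33.3 in D9, 0 in D11 and 3.03 in D12. The pathway was not uniform, since Alad, its second enzyme, overlapped at 359 to 1183 CPM (median 792) against 741 in D3, 53.0 in D9, 395 in D11 and 1.52 in D12. Ireb2, a sensor of iron that acts on mRNAs, had a log2 fold of -1.98, with 25.8 to 215 CPM (median 130.3) against 0 in D3, 797 in D9, 967 in D11 and 50 in D12, and D9 and D11 were high. Per ERCC read its fold was above 0. Slc25a37, the mitochondrial iron importer, had 0 to 138 CPM (median 22.7) and 21.2 in D3, 53.0 in D9, 288 in D11 and 3.03 in D12. Without D3 the list's median was 4.25.

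The factors that partner with or oppose GATA1 overlapped more than these genes when taken 1 by 1. Of 18 such transcription factors 2 were at least 4-fold higher in erythroid-type cells (25.6% of all genes) and 5 in stem-like cells (16.2% of all genes). The median log2 fold was -1.08, -0.13 without D3 and 1.66 per ERCC read, the latter below the all-gene median on that scale. The list summed to 0.208% to 0.404% of gene reads in erythroid-type cells, 0.682% to 1.05% in stem-like cells and 0.386% to 0.862% in CD150+CD48- cells, without overlap between the classes. Lmo2, given below, took most of this sum in D9 and D12. The sum was not taken without Lmo2, so its lack of overlap cannot be ascribed to the list as a whole. Gata1, Klf1 and Gfi1b belong to the erythroid list and are left out of this median and sum. Gata2, which acts before Gata1, had 0 to 30.3 CPM (median 0) against 95.5 in D3, 0 in D9, 369.7 in D11 and 141 in D12, and had no read in D9. Lmo2, a bridge in the complexes of GATA and TAL1 proteins, had 189 to 1019.7 CPM (median 685) against 2597 in D3, 3824 in D9, 3903 in D11 and 7573 in D12, without overlap. Tal1, the partner in that complex, had reads in all 11 cells, at 230.3 to 598 CPM (median 426) and 329 in D3, 453 in D9, 209 in D11 and 57.6 in D12, and the ranges overlapped. Spi1, which encodes PU.1, a factor of white blood cells, had no read in erythroid-type cells and 723 in D3, 0 in D9, 42.4 in D11 and 15.2 in D12, mostly D3. Fli1, a factor of megakaryocytes and stem cells, had none in the former and 1.52 in D3, 16.7 in D9, 87.9 in D11 and 0 in D12. E2f2, an activator of cell cycle genes, had 0 to 256 CPM (median 28.8), highest in D5, and no read in the 4 stem-like cells. Zbtb7a, a repressor that acts in red cells, had 3.03 to 66.7 CPM (median 24.2) against 0 in D3, 12.1 in D9, 3.03 in D11 and 3.03 in D12.

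Stem cell genes were higher in stem-like cells across the list. Of its 28 genes 20 passed the filter, of which 19 were at least 4-fold higher in stem-like cells (16.2% of all genes tested), none in erythroid-type cells, and 10 had all 4 above all 7 (2.38%). The median log2 fold was -5.46 (-5.75 with genes at 0 in a class at their bound). Of the 20 genes, 8 had no read in erythroid-type cells, so they passed through the stem-like cells alone and had to be higher there. Angpt1 and Meis1, also on the list, were given as markers of these same cells. The counts are therefore no separate support for the class. Of the 8 genes that did not pass the filter, Cdkn1c and Hoxb5 had no read in the 11 cells, and Fgd5, Gfi1, Hoxa10, Robo4, Sult1a1 and Tek had reads in stem-like cells only, in too few cells for the filter. Hlf (ENSMUSG00000003949, chromosome 11, 90336536 to 90390895) had no read in erythroid-type cells and 3619.7 in D3, 1432 in D9, 1288 in D11 and 845 in D12, at least 2766-fold higher, and was read in 8 of 9 CD150+CD48- cells. Cd34, a surface protein of progenitors, had 224 in D3, 941 in D9, 1503 in D11 and 47.0 in D12 and no read in erythroid-type cells, and D12 was low. Txnip, a regulator of the redox state, had 0 to 139 CPM (median 75.8) against 3533 in D3, 1080.3 in D9, 1844 in D11 and 1233 in D12, without overlap.

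The 4 stem-like cells did not share all of this list. Hoxa9, a homeobox factor of progenitors, had 483 in D3, 498 in D9, 436 in D11 and 3.03 in D12, with D12 low, while its neighbour Hoxa5 had 136 in D3, 0 in D9, 7.58 in D11 and 364 in D12, with D12 high. Mecom, a factor of long-lived stem cells, had 114 in D3, 7.58 in D9, 285 in D11 and 18.2 in D12. Ly6a, the marker Sca-1, had 0 in D3, 48.5 in D9, 285 in D11 and 595 in D12, and none in D3. Prdm16, a chromatin factor of stem cells, had 3.03 in D3, 218 in D9, 0 in D11 and 1.52 in D12, and without D9 its log2 fold of -2.92 turned to 1.57. Mllt3, a factor of transcription elongation in stem cells, was the exception to the list, with 71.2 to 339 CPM (median 188) in erythroid-type cells and 0 in D3, 145 in D9, 0 in D11 and 815 in D12. The stem cell list summed to 0.0132% to 0.0541% of gene reads in erythroid-type cells, 0.887% to 1.14% in stem-like cells and 0.407% to 1.33% in CD150+CD48- cells, so the stem-like cells lay within the range of the CD150+CD48- cells.

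**Figure D3:**
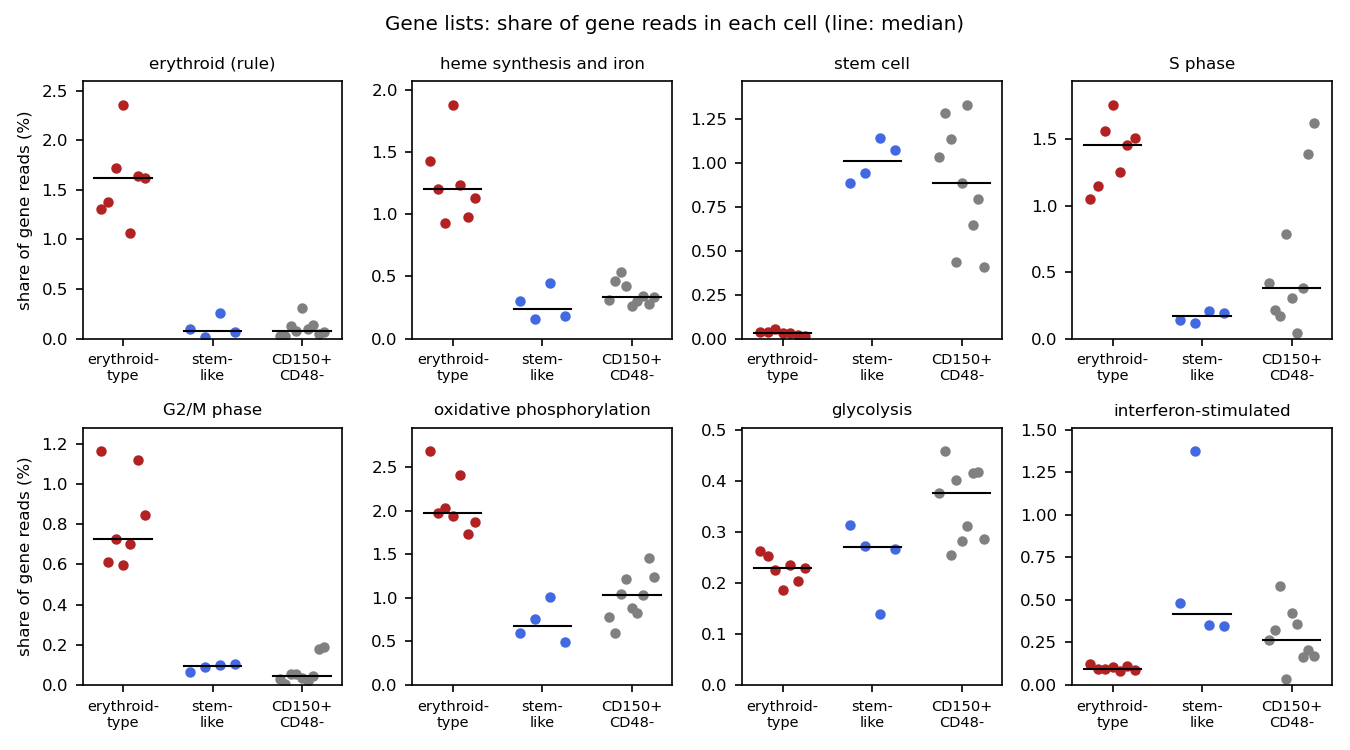
Share of gene reads (percent, y axis, each panel with its own scale from 0) taken by 8 gene lists in each cell at equal depth, for 7 erythroid-type, 4 stem-like and 9 CD150+CD48- cells, with the median as a line. Erythroid, heme, S phase, G2/M and oxidative phosphorylation shares of erythroid-type cells lie above all stem-like cells, the stem cell share lies below them, and D12 stands out in the interferon panel at 1.37%.

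Cell cycle genes separated the classes nearly as widely. Of 35 S phase genes 26 were at least 4-fold higher in erythroid-type cells (25.6% of all genes tested), none in stem-like cells, and 20 did not overlap (6.57% of all genes), with a median log2 fold of 3.33. It was 5.16 without D9 and 4.66 without D3. Of 38 G2/M genes 34 were at least 4-fold higher in erythroid-type cells, none in stem-like cells, and 20 did not overlap, with a median of 5.57. All members of both lists passed the filter. Of these, 5 S phase and 8 G2/M genes had no read in stem-like cells, so they passed through the erythroid-type cells alone and had to be higher there. The S phase list summed to 1.05% to 1.76% of gene reads in erythroid-type cells, 0.119% to 0.208% in stem-like cells and 0.0444% to 1.62% in CD150+CD48- cells, and the G2/M list 0.600% to 1.16% of gene reads in erythroid-type cells, 0.0665% to 0.105% in stem-like cells and 0.00455% to 0.190% in CD150+CD48- cells. B4 and B9 of the CD150+CD48- cells had S phase shares within the range of erythroid-type cells.

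Mcm5, a subunit of the replicative helicase, had 867 to 2105 CPM (median 1218), and 8 reads in D12 alone among stem-like cells. Pcna, the sliding clamp of replication, was read in every cell, at 1195 to 3451 CPM (median 1976) against 332 in D3, 300.0 in D9, 253 in D11 and 224 in D12, without overlap. Ccne1, cyclin E1, which starts S phase, had 89.4 to 1541 CPM (median 658) and 1 read in D9, whereas its paralog Ccne2 overlapped, with 45.5 to 221 CPM (median 114) against 250.0 CPM in D11 and none in the other stem-like cells. Ccna2, cyclin A2, had 233 to 1226 CPM (median 832) and 3 reads in stem-like cells. Bub1b, a kinase of the spindle checkpoint, had 130.3 to 506 CPM (median 330.3) and no read in the 4 stem-like cells. Mki67, the proliferation antigen, had 471 to 1259 CPM (median 630.3) against 241 CPM in D3 and no read in D9, D11 and D12. Ect2 and Kif23, genes of cell division, overlapped, with log2 folds of -0.08 and 0.37.

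The G1 genes split by gene. Of 13 genes 11 passed the filter, 2 were at least 4-fold higher in each class and none lay without overlap, with a median log2 fold of 0.32. Over all genes 25.6% were at least 4-fold higher in erythroid-type and 16.2% in stem-like cells. Their summed share did not overlap, at 0.157% to 0.313% of gene reads in erythroid-type cells, 0.0674% to 0.155% in stem-like cells and 0.0373% to 0.273% in CD150+CD48- cells. Cdk4, the kinase of D cyclins, was read in every cell, at 565 to 1673 CPM (median 895) against 250.0 in D3, 133 in D9, 1023 in D11 and 408 in D12, and D11 lay within the erythroid-type range. Cdk6, its paralog, had 0 to 164 CPM (median 98.5) and 16.7 CPM in D9 alone among stem-like cells. Cdkn2c, the inhibitor p18, had 0 to 221 CPM (median 89.4) and 3 reads in D12. Cdkn2d, the inhibitor p19, went the other way through D3 alone, with 219.7 CPM there, and its log2 fold of -3.51 turned to 2.29 without D3. Ccnd2, cyclin D2, had 0 to 24.2 CPM (median 0) against 3.03 in D3, 0 in D9, 21.2 in D11 and 250.0 in D12. Cdkn1a, the inhibitor p21, had no read in the 11 cells.

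Genes that supply division and energy were higher in erythroid-type cells by a smaller margin. Of 24 genes of nucleotide and one-carbon synthesis 14 were at least 4-fold higher in erythroid-type cells (25.6% of all genes) and 1 in stem-like cells (16.2% of all genes). Without overlap were 7, all with erythroid-type cells above (6.57% of all genes), and the median log2 fold was 2.49. Mthfd1l, of mitochondrial folate metabolism, had 93.9 to 555 CPM (median 241) against 0 in D3, 4.55 in D9, 0 in D11 and 10.6 in D12. Ctps, CTP synthase, had 87.9 to 294 CPM (median 118) against 7.58 in D3, 0 in D9, 0 in D11 and 1.52 in D12. Impdh1, an enzyme of GTP synthesis, was higher in stem-like cells, at 373 in D3, 74.2 in D9, 117 in D11 and 65.2 in D12 against 0 to 83.3 CPM (median 18.2), but not per ERCC read, where its log2 fold was 0.45. Of 30 genes of ribosome biogenesis 11 were at least 4-fold higher in erythroid-type cells and none in stem-like cells, with 8 without overlap (6.57% of all genes) and a median of 1.37. The count of 11 is not far from the 25.6% of all genes. The list's summed share overlapped, at 0.583% to 1.01% of gene reads in erythroid-type cells, 0.242% to 0.594% in stem-like cells and 0.240% to 0.691% in CD150+CD48- cells. Only C9 and D3 made this overlap. Without C9 the erythroid-type cells had 0.838% to 1.01%, above every stem-like cell. Nat10, an RNA acetyltransferase, had 6.06 to 897 CPM (median 224) and 7 reads in D9. Polr1a, the large subunit of RNA polymerase I, had 34.8 to 302 CPM (median 130.3) and 3 reads in D11. Pes1, of the large ribosomal subunit's assembly, went the other way per gene read, though not per ERCC read, with 0 to 117 CPM (median 53.0) against 489 in D3, 24.2 in D9, 206 in D11 and 37.9 in D12.

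Of 63 nuclear genes of oxidative phosphorylation 16 were at least 4-fold higher in erythroid-type cells (25.6% of all genes) and none in stem-like cells. Without overlap were 11 (6.57% of all genes), and 60 had a log2 fold above 0. The count of 16 lay near the share of all genes, but the median of 1.46 lay above the 0.28 of all genes. The list summed to 1.73% to 2.68% of gene reads in erythroid-type cells, 0.492% to 1.01% in stem-like cells and 0.593% to 1.46% in CD150+CD48- cells. Atp5b, the catalytic subunit of ATP synthase, had 1809 to 3850.0 CPM (median 3045) against 86.4 in D3, 138 in D9, 115 in D11 and 747 in D12. Ndufb8, of complex I, had 71.2 to 435 CPM (median 156) against 27.3 in D3, 1.52 in D9, 0 in D11 and 19.7 in D12. Ndufa6, of the same complex, overlapped with 50 to 202 CPM (median 155) against 261 in D3, 279 in D9, 63.6 in D11 and 156 in D12.

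Glycolysis genes differed by gene rather than as a group. Of 15 genes 14 passed the filter, 2 were at least 4-fold higher in erythroid-type cells (25.6% of all genes) and 5 in stem-like cells (16.2% of all genes). The median log2 fold was -0.87, -0.08 without D9 and 1.85 per ERCC read. Pkm (ENSMUSG00000032294, chromosome 9, 59656368 to 59679375), pyruvate kinase of most tissues, had no read in the 7 erythroid-type cells and 741 in D3, 50 in D9, 603 in D11 and 624 in D12, at least 777-fold higher, and was read in all 9 CD150+CD48- cells. Pklr, the pyruvate kinase of red cells and liver, was looked up after this was seen: it had 36.4 to 155 CPM (median 54.5) and no read in stem-like or CD150+CD48- cells. Each class thus had reads of a different pyruvate kinase gene. Ldha, lactate dehydrogenase A, had 445 to 1288 CPM (median 718) against 12.1 in D3, 7.58 in D9, 433 in D11 and 114 in D12, without overlap. Eno1, enolase 1, had 105 to 432 CPM (median 338) against 0 in D3, 87.9 in D9, 145 in D11 and 6.06 in D12. Slc2a1, a glucose transporter, had no read in erythroid-type cells and 0 in D3, 117 in D9, 4.55 in D11 and 264 in D12.

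**Figure D4:**
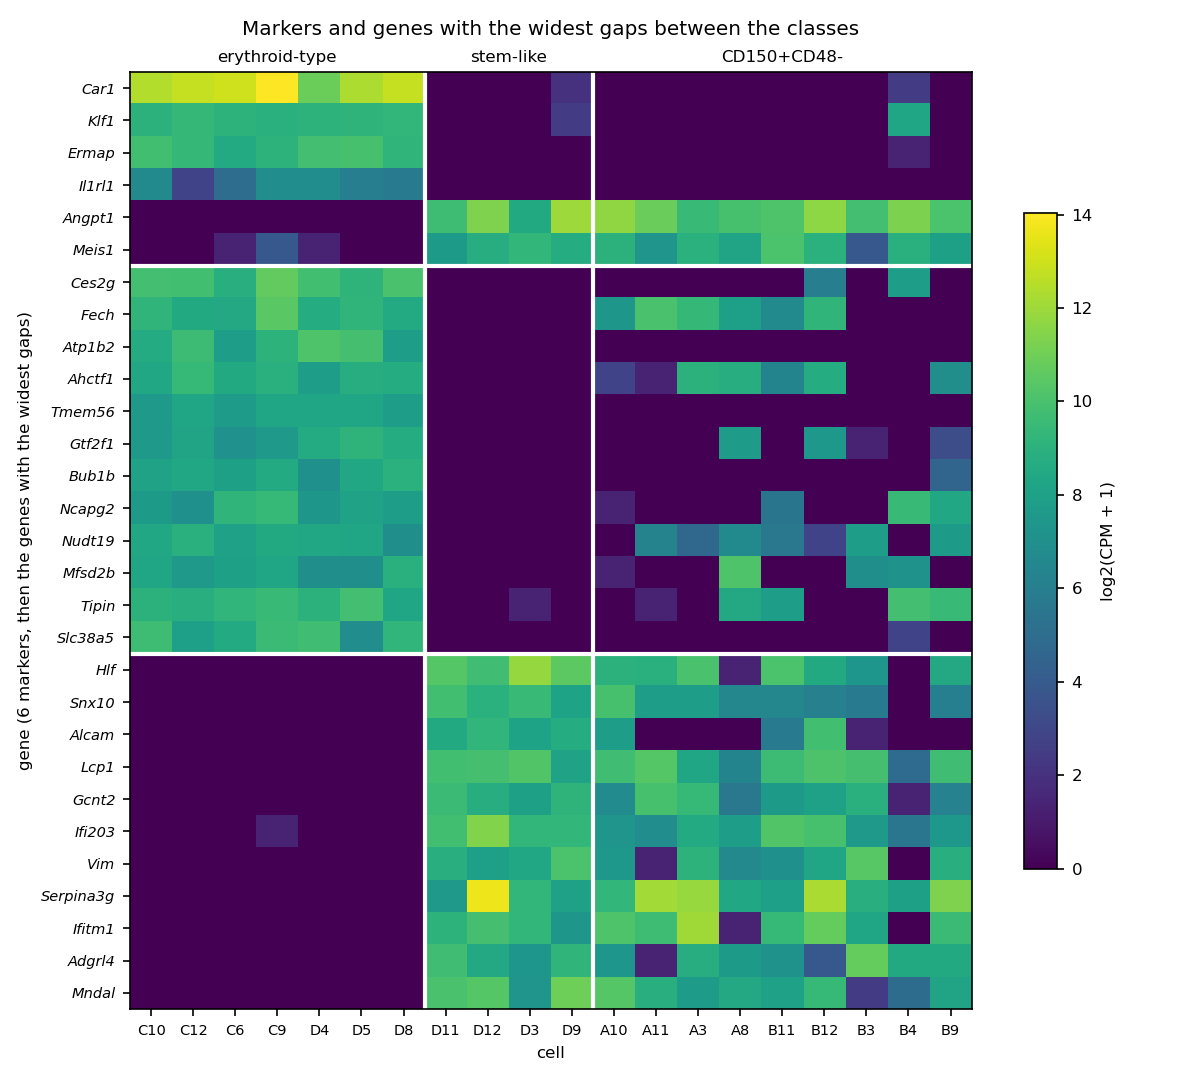
Levels as log2 of CPM plus 1 (colour) of the 6 marker genes and the 12 genes per direction with the widest gap between the classes (rows; Angpt1, which is both, is shown once) in 20 cells (columns). The CD150+CD48- cells on the right resemble neither block in full: all 9 have Angpt1 and Serpina3g, and Fech, Ahctf1 and Nudt19 are read in 6 or 7 of them.

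The genes with the widest gaps were picked from all 9763, leaving out predicted genes and the erythroid list, so their lack of overlap is how they were chosen. Towards erythroid-type cells these were Ces2g, Fech, Atp1b2, Ahctf1, Tmem56, Gtf2f1, Bub1b, Ncapg2, Nudt19, Mfsd2b, Tipin and Slc38a5. Ces2g (ENSMUSG00000031877, chromosome 8, 104961718 to 104969537), a carboxylesterase, had 468 to 1612 CPM (median 888) and no read in the 4 stem-like cells, at least 797-fold higher. Atp1b2 (ENSMUSG00000041329, chromosome 11, 69599736 to 69605942), a beta subunit of the sodium pump, had 229 to 1144 CPM (median 548), and Tmem56, a membrane protein, 188 to 315 CPM (median 302), both with no read in stem-like or CD150+CD48- cells. Mfsd2b, an exporter of the lipid sphingosine-1-phosphate from red cells, had 126 to 477 CPM (median 248), and Sphk1, a kinase that makes this lipid and a member of the erythroid list, 156 to 498 CPM (median 333), with no read of either in stem-like cells. Slc38a5, a glutamine transporter, had 115 to 865 CPM (median 617). Ahctf1, which takes part in nuclear pore assembly, and Ncapg2, of condensin II, had 227 to 676 CPM (median 418) and 130.3 to 688 CPM (median 236). Gtf2f1 and Nudt19, a general transcription factor and a CoA hydrolase, had 138 to 564 CPM (median 298) and 127 to 480.3 CPM (median 341), and were read in 4 and 7 of 9 CD150+CD48- cells.

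Towards stem-like cells the genes were Hlf, Angpt1, Snx10, Alcam, Lcp1, Gcnt2, Ifi203, Vim, Serpina3g, Ifitm1, Adgrl4 and Mndal, and of these Ifi203 alone had a read in erythroid-type cells, 1 in C9. Snx10, of endosomal sorting, had 715 in D3, 286 in D9, 883 in D11 and 503 in D12. Alcam (ENSMUSG00000022636, chromosome 16, 52248996 to 52454074), an adhesion molecule, had 280.3 in D3, 417 in D9, 373 in D11 and 609 in D12, at least 646-fold higher. Only 4 of 9 CD150+CD48- cells had a read, and 1 of these reached the lowest stem-like level. The cytoskeleton was represented by Lcp1, an actin bundler of white blood cells, with 1200.0 in D3, 273 in D9, 891 in D11 and 968 in D12. Vim, vimentin, had 344 in D3, 1071 in D9, 447 in D11 and 242 in D12. Gcnt2, a glycosyltransferase, had 256 in D3, 552 in D9, 761 in D11 and 424 in D12. Adgrl4, an adhesion receptor, had 168 in D3, 577 in D9, 867 in D11 and 348 in D12. Serpina3g, a serine protease inhibitor, had 626 in D3, 258 in D9, 186 in D11 and 13085 in D12, so D12 held most of its reads.

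Read back in the CD150+CD48- cells, which took no part in the split, both sets of genes without overlap had reads. Of the 641 genes with erythroid-type cells above, 37.4% to 77.8% had a read in a CD150+CD48- cell (median 47.1%). Of the 232 genes with stem-like cells above, 53.9% to 94.4% had one (median 81.5%). The shares in the 2 classes themselves follow in part from how the genes were chosen and are not set beside these. In the former set A8, B9 and B11 were highest, with 68.5%, 77.8% and 68.8%, and these were also the CD150+CD48- cells with the most genes read at equal depth, 7699 to 8659 against 4770 to 5811 in the other 6. B4, lowest in the latter set, had the fewest genes read. The part of the number of genes read in these shares was not tested. No share was taken over all genes past the filter in the CD150+CD48- cells. Without it neither the 47.1% nor the 81.5% can be called high or low. Their contrast therefore does not show which class the CD150+CD48- cells resemble.

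Interferon-stimulated genes were higher in stem-like cells in their summed share of gene reads, and D12 stood apart. Of 22 interferon-stimulated genes 19 passed the filter. At least 4-fold higher were 9 in stem-like cells (16.2% of all genes) and 2 in erythroid-type cells (25.6% of all genes). Without overlap were 3, with stem-like cells above (2.38% of all genes). The median log2 fold was -1.69, and 1.25 per ERCC read, which is below the all-gene median of 2.83 on that scale. The list summed to 0.0838% to 0.124% of gene reads in erythroid-type cells, 0.345% to 1.37% in stem-like cells and 0.0371% to 0.584% in CD150+CD48- cells. Ifitm1, a membrane protein that restricts viruses, had 639 in D3, 173 in D9, 541 in D11 and 947 in D12 and no read in erythroid-type cells. Irf1, a factor induced by interferon, had 0 in D3, 1050.0 in D9, 221 in D11 and 8836 in D12, and in erythroid-type cells reads in C12 and D8 only, up to 78.8 CPM. Most of D12's summed share was Irf1. Ifit2 went the other way, with 0 to 98.5 CPM (median 28.8) and no read in the 4 stem-like cells. Ifi203 and Mndal, neighbours on chromosome 1 whose annotated spans overlap, had 639 in D3, 639 in D9, 898 in D11 and 2712 in D12 and 161 in D3, 1935 in D9, 1019.7 in D11 and 1289 in D12, and reads of related family members may be shared between them.

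Of 15 genes of MHC class I presentation 6 were at least 4-fold higher in stem-like cells (16.2% of all genes) and 1 in erythroid-type cells (25.6% of all genes). The median log2 fold was -1.69, and 0.90 per ERCC read. The list summed to 0.178% to 0.705% of gene reads in erythroid-type cells and 0.517% to 1.57% in stem-like cells, and the classes overlapped through C9 alone. Without C9 the erythroid-type cells had 0.178% to 0.376%, below every stem-like cell. Psmb8, a subunit of the immunoproteasome, had 0 to 115 CPM (median 0) against 1252 in D3, 1244 in D9, 467 in D11 and 303 in D12, without overlap. H2-D1, a class I heavy chain whose paralogs can share its reads, overlapped with 102 to 1736 CPM (median 444) against 25.8 in D3, 309 in D9, 927 in D11 and 312 in D12. Tap1, of the peptide transporter, had 1308 CPM in D12 and no read in the other stem-like cells, and its log2 fold of -2.40 turned to 5.96 without D12. Erap1, which trims peptides, had 6.06 to 89.4 CPM (median 25.8) against 0 in D3, 0 in D9, 13.6 in D11 and 1.52 in D12.

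Receptors and adhesion genes split by gene. Of 22 cytokine receptors 14 passed the filter, 3 were at least 4-fold higher in erythroid-type cells (25.6% of all genes) and 9 in stem-like cells (16.2% of all genes), with a median log2 fold of -2.88 that was -1.21 without D11 and 0.55 with a stricter gene filter. Il6st, the shared chain of interleukin 6 receptors, had no read in erythroid-type cells and 1.52 in D3, 0 in D9, 268 in D11 and 1.52 in D12. Il2rg, the shared gamma chain, had 62.1 in D3, 22.7 in D9, 0 in D11 and 997 in D12, and 197 CPM in C9 alone of the erythroid-type cells. The chains of the receptor for TGF-beta went opposite ways: Tgfbr2 had no read in erythroid-type cells and 0 in D3, 183 in D9, 21.2 in D11 and 69.7 in D12, while Tgfbr1 had 0 to 139 CPM (median 21.2) and 1 read in D11. Of 17 adhesion and homing genes 12 passed the filter, with a median of -0.06. At least 4-fold higher were 2 in erythroid-type cells (25.6% of all genes) and 3 in stem-like cells (16.2% of all genes). Itga6, an integrin chain, had 183 in D3, 36.4 in D9, 66.7 in D11 and 37.9 in D12 and 5 reads in C6. Itga5, of the fibronectin receptor, had 0 to 66.7 CPM (median 25.8) and no read in the 4 stem-like cells. Cd82, a tetraspanin, had 28.8 to 133 CPM (median 56.1) against 0 in D3, 3.03 in D9, 12.1 in D11 and 7.58 in D12, without overlap. Icam1 had no read in erythroid-type cells and 6.06 in D3, 95.5 in D9, 0 in D11 and 205 in D12.

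Among genes of survival, early response and chromatin few stood clear of the cell-to-cell spread. Of 12 BCL2 family genes 6 passed the filter, 3 were at least 4-fold higher in erythroid-type cells (25.6% of all genes) and 1 in stem-like cells (16.2% of all genes). The median of 2.81 was -1.62 in letter D cells alone. Bcl2l11, which encodes the death-promoting BIM, had 0 to 142 CPM (median 12.1) and no read in the 4 stem-like cells. Bcl2, its antagonist, had 1 read in D4 and 0 in D3, 144 in D9, 0 in D11 and 3.03 in D12. Mcl1, another antagonist, was read in every cell, with 2161 CPM in D12 and 103 to 127 CPM in the other stem-like cells, against 89.4 to 241 CPM (median 188). Of 19 immediate early and KLF genes 6 passed the filter, 2 were at least 4-fold higher in erythroid-type cells (25.6% of all genes) and 1, Klf6, in stem-like cells (16.2% of all genes). The median of -0.51 was 4.40 without D12. Of 18 genes of Polycomb, DNA methylation and HMGA proteins 3 were at least 4-fold higher in erythroid-type cells (25.6% of all genes) and 6 in stem-like cells (16.2% of all genes). Their median was -1.06, -0.14 without D11 and 1.52 per ERCC read. Suz12, of Polycomb complex 2, had 168 to 1098 CPM (median 489) against 0 in D3, 4.55 in D9, 0 in D11 and 18.2 in D12, without overlap. Dnmt3b, a DNA methyltransferase, had 0 to 6.06 CPM (median 0) against 98.5 in D3, 661 in D9, 0 in D11 and 9.09 in D12, highest in D9. Tet1, which oxidises methylated cytosine, had no read in erythroid-type cells and 18.2 in D3, 480.3 in D9, 68.2 in D11 and 3.03 in D12, also highest in D9. Hmga1, a chromatin protein of dividing cells, had 34.8 to 242 CPM (median 78.8) against 0 in D3, 48.5 in D9, 0 in D11 and 1.52 in D12.

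Markers of other cell types were looked for in both classes. Of 17 megakaryocyte and platelet genes 8 had no read in the 11 cells, among them Itgb3, Gp6 and Ppbp, and 4 passed the filter. The megakaryocyte and platelet list summed to 0% to 0.0395% of gene reads in erythroid-type cells, 0% to 0.0956% in stem-like cells and 0.00697% to 0.474% in CD150+CD48- cells. Vwf, von Willebrand factor, had 395 CPM in D8, where Gata1 was lowest, at most 31.8 CPM in the other erythroid-type cells, and 1 read in stem-like cells. Plek, of platelets and white cells, had 952 CPM in D11, at most 4.55 CPM in the other stem-like cells and no read in erythroid-type cells. Of 18 neutrophil and monocyte genes 11 had no read, with Mpo, Elane, Csf1r and S100a9 among them, and the list summed to 0% to 0.0105% of gene reads in erythroid-type cells, 0.0256% to 0.0668% in stem-like cells and 0.0103% to 0.125% in CD150+CD48- cells. Prtn3, a granule protease, had no read in erythroid-type cells and 274 in D3, 179 in D9, 380.3 in D11 and 62.1 in D12, and Csf3r, the receptor of the granulocyte growth factor, 102 in D3, 0 in D9, 24.2 in D11 and 1.52 in D12. Lyz2, lysozyme, had 0 in D3, 133 in D9, 206 in D11 and 74.2 in D12, and 63.6 CPM in C9.

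Of 12 lymphoid-primed genes Il7r, Rag1 and Rag2 were among those with no read, and the list summed to 0% to 0.000152% of gene reads in erythroid-type cells, 0.0183% to 0.104% in stem-like cells and 0.00879% to 0.0692% in CD150+CD48- cells. The 4 members past the filter had no read in the 7 erythroid-type cells, so each passed through the stem-like cells alone and had to be higher there. Flt3, a receptor of multipotent progenitors, had 0 in D3, 47.0 in D9, 553 in D11 and 1.52 in D12, mostly D11. Satb1, a chromatin organiser of lymphoid cells, had 183 in D3, 6.06 in D9, 169.7 in D11 and 57.6 in D12. Il12a and Cd27 had 0 in D3, 392 in D9, 63.6 in D11 and 42.4 in D12 and 0 in D3, 59.1 in D9, 53.0 in D11 and 83.3 in D12. Of 12 mast cell, basophil and eosinophil genes 11 had no read, and Ms4a2 had reads in 1 class only, up to 27.3 CPM in an erythroid-type cell. The B cell genes Cd79a and Ms4a1 had no read, while Cd79b had 188 CPM in C9, no read in the other 6 erythroid-type cells and 2 reads in D11. Of 8 T and NK cell genes 6 had no read, of 8 macrophage genes 4, including Adgre1 and C1qa, and of 12 endothelial and stromal genes 4, including Cdh5 and Kdr. Emcn, an endothelial protein that stem cells also carry, had 126 in D3, 0 in D9, 198 in D11 and 15.2 in D12 and none in erythroid-type cells. The part of other cell types in the results was not tested.

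The cells of a class resembled each other to different degrees. Across the 9763 genes, Spearman's rho between 2 erythroid-type cells was 0.50 to 0.75 (21 pairs, median 0.64), and between 2 stem-like cells 0.31 to 0.40 (6 pairs, median 0.33). Between the classes rho was 0.18 to 0.30 (28 pairs). Stem-like cells had 0.25 to 0.43 with CD150+CD48- cells (36 pairs), and erythroid-type cells 0.18 to 0.47 (63 pairs). The points are genes that share each cell's library and amplification, so the values are descriptive. The lowest pairs within the erythroid-type class involved D8, the cell with the fewest genes of that class, and without D8 the range was 0.57 to 0.75.

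**Figure D5:**
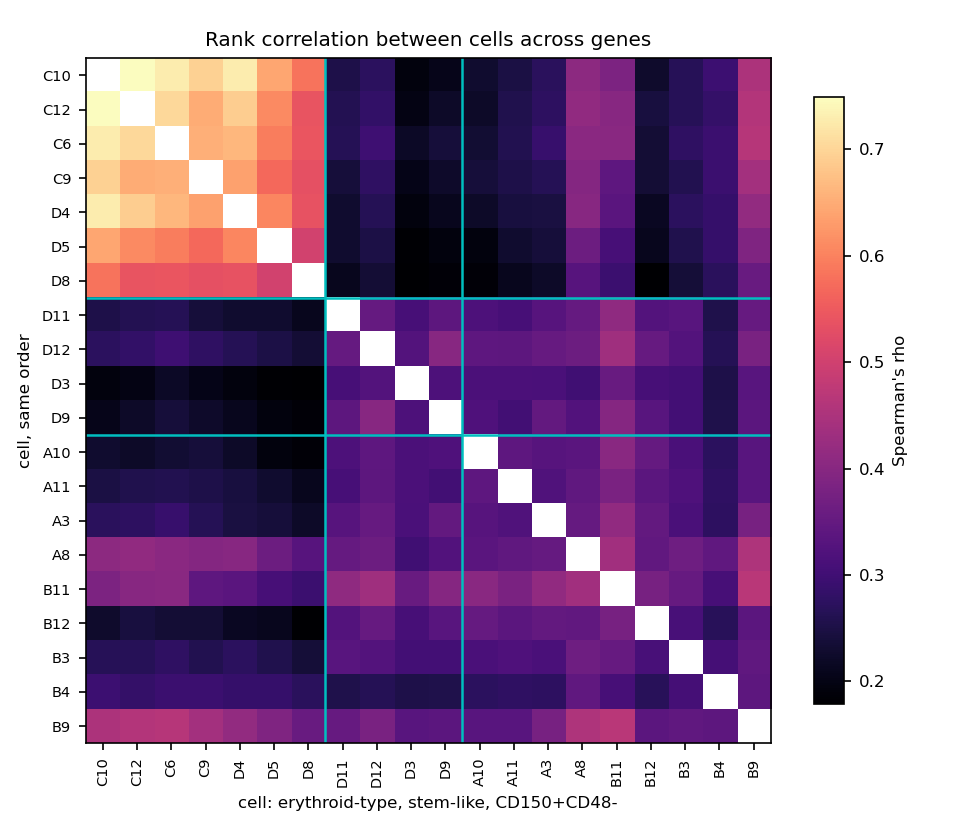
Spearman's rho between the levels of 9763 genes in each pair of the 20 cells (colour), ordered as erythroid-type, stem-like and CD150+CD48- cells, with lines between the classes. The erythroid-type block lies at 0.50 to 0.75, the stem-like block at 0.31 to 0.40, and the block between them at 0.18 to 0.30.

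The stem-like cells also differed in genes that only 1 of them had. Of 524 list genes, those that reached 50 CPM in 1 cell of a class and had no read in the others of that class numbered 11 in D12, 4 in D11, 3 in D3 and 2 in D9. Among erythroid-type cells C9 had 3 and the other 6 cells none, and with 7 cells rather than 4 this count is harder to reach. In D12 these included Tap1, Vcam1, an adhesion molecule, with 255 CPM, and Gfi1, a repressor of stem cells and granulocytes, with 229 CPM. In D11 they included Ccne2, Stat2, with 247 CPM, and Lck, a kinase of lymphocytes, with 200.0 CPM. D3 had Mki67, Cdkn2d and Rrp1b, of ribosome biogenesis, at 156 CPM, and D9 had the erythroid gene Hemgn at 98.5 CPM and Robo4, a receptor of stem and endothelial cells, at 97.0 CPM. C9 had Il2rg, Cd79b and Lyz2.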

How the data were processed

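The authors deposited counts of reads per Ensembl gene, 1 file a cell with 38561 genes and 5 summary rows, and a table of the series with 18464 of these genes at equal counts and 51 ERCC rows. Per the submitters' processing notes the tools were HTSeq and R 3.0.2 and the build GRCm38. The sources used here name no aligner, annotation release or strand setting, so antisense and overlapping genes cannot be told apart. Reads that aligned to more than 1 place (36.4% to 56.4% in the CD150- cells) were not counted in genes, which lowers genes with near-identical copies.

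Summary and ERCC rows were left out of totals, and each cell was thinned to 660007 gene reads, the lowest total of the 20 cells (seed 1). Symbols were matched for 36639 identifiers. Genes needed 10 thinned reads and a read in 3 of the 11 cells. Means were taken over the cells of a class with a pseudocount of 1 CPM, and a gene counted as higher at 4-fold. Each class counts as 1 sample: no test between the classes was made and no p-value is given. Exact limits at 95% are over cells and cover counting error only. Reads without molecular identifiers are PCR copies and not independent molecules, and are given no interval. No 2 cells held identical counts. Coordinates are from GENCODE M21, on GRCm38, and upstream sequences from RefSeq.

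The members and the 26 gene lists were chosen with earlier results of these data known. Named are the gate genes, the 6 markers, 12 genes per direction by the widest gap, the 2 highest and 2 lowest members of each list, and list genes at 50 CPM or more in 1 cell alone of its class (at most 3 a cell). Other list members named as examples, Pklr and the haemoglobin genes were chosen after their values were seen. Alternatives were no thinning, other scalings, filters, pseudocount and averaging, letter D cells alone, and leaving out each cell. Python 3.11.15, numpy 2.4.6, pandas 2.3.3 and scipy 1.17.1 were used, with edgeR 4.0.16 and DESeq2 1.42.0 in R 4.3.3 for scaling factors only, and the steps were tested on simulated data. A few members of the lists are counted in the list totals and not reported here by name.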

Additional observations from a re-analysis of the deposited data

Results flagged for a closer look

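Of 72 groups of values examined, 13 had a cell far from the others of its class by Dixon's criterion, used to point out cells and not as a test, since cells of a class are not replicates. By chance it marks about 1 group in 20, a rate that does not hold where all other cells are at 0 and any read is marked, as for neutrophil and lymphoid-primed genes here. C9 stood apart among erythroid-type cells in 5 of these: Fech at 1377 CPM against 352 to 591 in the other 6, the G1 list at 0.313% of gene reads against 0.157% to 0.180%, MHC class I genes at 0.705% against 0.178% to 0.376%, ribosome biogenesis genes at 0.583% against 0.838% to 1.01%, and neutrophil and monocyte genes at 0.0105% against 0. C6 had 0.000152% in lymphoid-primed genes, which is 1 read, against 0. D8 had 0.0395% in megakaryocyte and platelet genes, nearly all of it Vwf, against at most 0.00848%, and 16.8% unaligned reads against 2.49% to 8.55%.

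Among stem-like cells D12 stood apart in 4 groups: interferon-stimulated genes at 1.37% against 0.345% to 0.483%, BCL2 family genes at 0.231% against 0.0103% to 0.0273%, Serpina3g at 13085 CPM against 186 to 626, and Ifi203 at 2712 CPM against 639 to 898. Most of D12's interferon share was Irf1, and most of its BCL2 share was Mcl1. D11 had 0.0956% in megakaryocyte and platelet genes, nearly all of it Plek, against at most 0.00803%. No interval is given for these cells, each of which is a single measurement.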

How the results depend on the processing

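The 7 and 4 cells were the same with the 13 genes that the rule names alone and with thresholds of 0.25% or 1%. The classes hold 7 and 4 cells, depth and gene reads per ERCC read differed between them, and low genes are limited by reads and by cells. Of 125 genes chosen by the naming rule 101 were past 4-fold, and 89 of these kept their direction under every alternative. For 6 others no read was left in 1 setting, with a fold of 0 (Alas2 and Usp18 in letter D cells, Gfi1 and Vcam1 without D12, Lck without D11, Robo4 without D9). Directions turned for Kit (0.57) and Impdh1 (0.45) per ERCC read, for Tap1 with the mean on the log scale (2.01) and without D12 (5.96, and down to -3.22 without C9), for Cd79b in letter D cells and without C9 (-0.81 in both, and up to 4.80 without D11), for Cdkn2d without D3 (2.29, and down to -4.21 without C6) and for Prdm16 without D9 (1.57, and down to -3.91 without C6). The cause was not tested.

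Scaling to ERCC reads moved nearly every count and median: 6330 genes were at least 4-fold higher in erythroid-type and 523 in stem-like cells, 1965 and 104 did not overlap, and the median over all genes was 2.83. List medians became 7.98 for the erythroid list, 6.23 for heme, 1.66 for GATA partners, -3.26 for stem cell, 3.26 for megakaryocyte, -2.64 for neutrophil, -5.03 for lymphoid-primed, 6.12 for S phase, 7.10 for G2/M, 2.62 for G1, -0.28 for cytokine receptor, 2.42 for adhesion, 4.28 for ribosome biogenesis, 5.26 for nucleotide, 4.26 for oxidative phosphorylation, 1.85 for glycolysis, 0.90 for MHC class I, 1.25 for interferon-stimulated, 1.66 for immediate early, 4.50 for BCL2 and 1.52 for Polycomb genes.

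With the mean on the log scale the median over all genes was 1.00, and those of lists were 6.66 (erythroid), 5.24 (heme), 0.86 (megakaryocyte), -4.77 (lymphoid-primed), 5.22 (S phase), 1.34 (G1), -2.10 (cytokine receptors), 1.01 (adhesion), 2.47 (ribosome biogenesis), 3.30 (nucleotide), 2.27 (oxidative phosphorylation) and -0.38 (interferon-stimulated). With a pseudocount of 5 CPM the erythroid list had 4.84, stem cell -4.65, megakaryocyte 0.81, neutrophil -2.94, lymphoid-primed -4.57, G2/M 3.93, cytokine receptors -2.34 and BCL2 1.79.

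Without a filter 14731 genes were compared, 2513 were at least 4-fold higher in stem-like cells and the BCL2 median was 1.46. With the filter of 50 reads and 5 cells 938 were so, 147 had all 4 above all 7, and medians were -4.62 (stem cell), 5.57 (megakaryocyte), 0.55 (cytokine receptors, turned) and 3.51 (immediate early), with too few neutrophil and lymphoid-primed genes left for a value. In letter D cells 368 genes had all 4 above all 3 after filtering in those cells, and medians were 7.34 (erythroid), -7.00 (stem cell), 6.70 (megakaryocyte), -6.71 (neutrophil), -3.73 (cytokine receptors), -2.75 (interferon-stimulated) and -1.62 (BCL2, turned). Without thinning, and thinned to the lowest total of the 11 cells, cytokine receptors had -3.61 and -3.43 and BCL2 1.71 and 1.89.

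Leaving out each cell in turn, the genes with all stem-like above all erythroid-type cells numbered 241 (without D8) to 414 (without D3), where a smaller class overlaps less by construction. List medians ranged from 6.50 (D4) to 7.16 (C9) for erythroid (rule), from 2.86 (D12) to 4.25 (D3) for heme synthesis and iron, from -1.30 (D5) to -0.13 (D3) for GATA switch and partner transcription factors, from -6.49 (C6) to -5.35 (D3) for stem cell, from 1.70 (D11) to 3.53 (C10) for megakaryocyte and platelet, from -6.71 (C9) to -5.04 (C10) for neutrophil and monocyte, from 3.37 (C6) to 5.16 (D9) for S phase, from -3.12 (C12) to -1.21 (D11) for cytokine receptors, from 1.06 (D9) to 1.96 (D3) for ribosome biogenesis, from 2.15 (D9) to 3.33 (D3) for nucleotide and one-carbon enzymes, from -1.01 (C12) to 4.40 (D12) for immediate early and KLF, from 2.10 (C12) to 4.32 (D12) for BCL2 family and from -1.24 (D4) to -0.14 (D11) for Polycomb, DNA methylation and HMGA, the cell left out in brackets.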

Other observations

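Haemoglobin genes, which have near-identical copies and are therefore uncertain, were read at low levels in erythroid-type cells. Hba-a1 had 10.6 to 169.7 CPM (median 75.8) in erythroid-type cells and 60.6 CPM in D9 alone among stem-like cells. Hba-a2 had 4.55 to 36.4 CPM (median 13.6), with 25.8 CPM in D9 and none in the other stem-like cells. Hbb-bt had 7.58 to 255 CPM (median 21.2) against 0 in D3, 22.7 in D9, 0 in D11 and 15.2 in D12. Hbb-bs had its highest level in D9, at 539 CPM, against 0 to 268 CPM (median 27.3) in erythroid-type cells. D9 also held the few Car1 and Klf1 reads of the stem-like class and its Hemgn reads, and whether these came from the cell itself was not tested.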
